A study of Mus musculus with 2 samples.

Results

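Neurexins and neuroligins are cell-surface proteins that face each other across the synaptic cleft. The genes described here are the 5 protein-coding members Nrxn2, Nrxn3, Nlgn1, Nlgn2 and Nlgn3, out of 21800 protein-coding genes with a unique symbol in the mouse annotation. They were chosen by name, as members of these gene families. For each gene the accessible regions and footprints were taken in the gene body with 10 kb on each side, and a promoter peak was a peak within 1 kb of a transcription start site (TSS) of a protein-coding transcript. The measurements came from 2 DNase-seq libraries, replicates 1 and 2, of the left cerebral cortex of male adult mice aged 18 to 20 months. The mice were B6CASTF1/J, F1 hybrids of a C57BL/6 and a CAST parent, and the labels name no treatment. DNase-seq reads out where the enzyme DNase I cuts chromatin, so that open stretches appear as peaks and short protected stretches inside them as footprints. Both libraries belong to a single group, are labelled as biological replicates with separate tissue samples and have the same donor entry, so the spread between them may be technical.

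Neurexins sit mainly on the presynaptic side, where they bind several families of partner proteins and act on transmitter release. Each neurexin gene gives rise to a long alpha form and a short beta form from separate start sites, and alternative splicing multiplies these forms further. Neuroligins are postsynaptic receptors for neurexins. The protein of Nlgn1 is found mostly at excitatory synapses, that of Nlgn2 at inhibitory synapses and that of Nlgn3 at both, and Nlgn3 lies on the X chromosome.

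Replicate 1 had 73221 peaks and replicate 2 had 111105 peaks in their shorter lists, which are used throughout unless the longer lists are named. Footprints numbered 264450 and 385637. Peak signal is the authors' own value for each peak, and its scaling is not stated. Promoters of genes that mark cortical neurons had a peak in both libraries in 8 of 8 cases, against 0 of 4 for astrocytes, 0 of 4 for microglia, 0 of 3 for endothelium, 2 of 4 for oligodendrocytes and 1 of 4 for inhibitory neurons. For hindbrain and midbrain the count was 0 of 4, and the share over all protein-coding genes was 58.7%. In the longer lists it was 8 of 8 for cortical neurons, 3 of 4 for inhibitory neurons and 2 of 4 for oligodendrocytes. There it was 1 of 4 for astrocytes and for hindbrain and midbrain, and 0 for microglia and endothelium. A marker without a promoter peak in these lists does not show that its cell type was absent. In such a mixed tissue, a peak found in few cells and a weak peak found in many cells cannot be told apart.

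Of the promoter signals, that of Nrxn2 exceeded those of Nrxn3 and Nlgn1 in both libraries, and that of Nlgn3 was below these. The strongest peak in the promoter window of Nlgn2 was as high as that of Nrxn2, but is shared with the neighbouring gene Tmem256. A promoter peak was present in both libraries for 4 of the 5 genes, against 58.7% of all protein-coding genes (12789 of 21800). The exception, Nlgn3, had a peak in replicate 1 only, so that the count was 5 genes in replicate 1, against 60.7% of all genes there, and 4 in replicate 2, against 61.2%. In the longer lists all 5 genes had a promoter peak in both libraries, against 63.3% of all genes. With so few genes, 1 gene more or less changes the share widely, and no reading is given to the difference from the background. The median of the mean promoter signal was 3.81 over the 4 genes and 3.54 over the 12789 genes with a promoter peak in both libraries. No test applies, because the design holds 1 group.

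Start sites less than 1 kb apart were joined, which gave 13 groups of coding start sites in the 5 genes. Of these, 9 had a peak in replicate 1, 6 in replicate 2 and 6 in both. Over all protein-coding genes 49.8% of such groups had a peak in both libraries, with 56.6% of the first and 23.6% of the later ones. Among genes with several groups, 44.9% of the first groups had one. Open chromatin was therefore found at some alternative starts of these genes and not at others, as the plot of start sites shows.

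**Figure D1:**
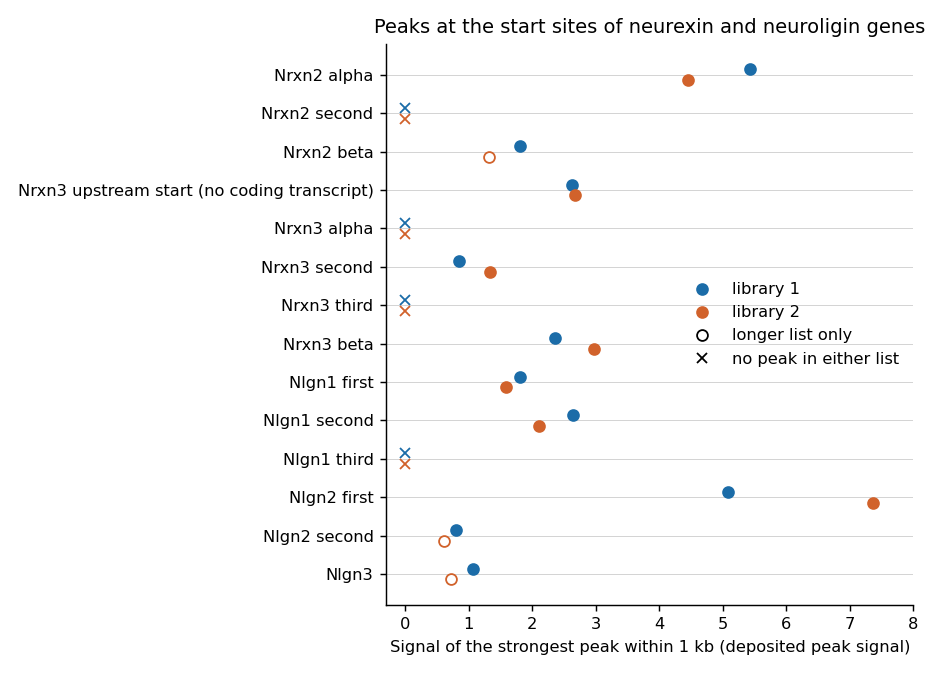
Signal of the strongest peak within 1 kb of each group of start sites (x axis, deposited peak signal) in replicate 1 (blue) and replicate 2 (orange), in order along each gene. Filled points come from the shorter lists, open points from the longer lists and crosses mark starts with no peak in either list: 4 coding starts have a cross in both libraries, and Nlgn2 reaches 7.37.

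In Nrxn2, which encodes a presynaptic receptor and spans chr19:6418731-6544169 (mm10, plus strand), the alpha start was the most accessible start. The peak over it had a signal of 5.43 in replicate 1 and 4.46 in replicate 2 (4.94 ± 0.688, SD, n = 2), higher than 71.0% of the promoter signals of each library. Transcripts from this start encode up to 1703 codons. A second peak just upstream, chr19:6418201-6418500, had 3.56 and 1.6. The noncoding gene Gm14965 lies at the same place, and which gene the peaks belong to was not tested. A second alpha start, 9192 bp downstream and with transcripts of up to 1710 codons, had no peak and no base listed with a q-value of at most 0.05 within 1 kb in either library. Its surroundings were rich in CpG, with an observed over expected ratio of 0.896 within 500 bp. At the beta start, 79097 bp from the alpha start and with 660 codons, replicate 1 had a peak of 1.81 and replicate 2 had none in its shorter list. In the longer lists the values were 1.81 and 1.32, and the best q-values within 1 kb were 3.37e-08 and 0.00127. The order of the starts by signal, alpha above beta, was the same in both libraries.

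The bases upstream of the Nrxn2 alpha start, and the strongest intronic region of the gene, are shown because they hold the highest signals in Nrxn2. All sequences are from the RefSeq assembly GRCm38.p6 (mm10 coordinates), written 5′ to 3′ on the strand of the named gene, with capitals for bases inside footprints of both libraries.
Nrxn2 alpha start (chr19:6418581-6418730): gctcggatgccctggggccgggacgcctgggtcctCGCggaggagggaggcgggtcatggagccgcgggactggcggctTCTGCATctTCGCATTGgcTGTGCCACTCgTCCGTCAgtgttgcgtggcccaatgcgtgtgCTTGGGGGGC
Nrxn2 intronic (chr19:6489061-6489280): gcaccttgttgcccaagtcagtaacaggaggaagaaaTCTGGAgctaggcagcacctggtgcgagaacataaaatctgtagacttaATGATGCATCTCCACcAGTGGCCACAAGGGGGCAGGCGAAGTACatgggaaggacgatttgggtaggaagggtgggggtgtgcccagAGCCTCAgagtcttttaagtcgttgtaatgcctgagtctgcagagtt

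Of the 150 bases before the alpha start, 45 lay in footprints of both libraries. The intronic region lies 8548 bp upstream of the beta start and had 5.28 in replicate 1 and 2.98 in replicate 2 (4.13 ± 1.62). Within it, 56 of 220 bases were protected in both libraries. The longest run of capitals holds the letters CCACAAGGGGGC, a match to the CTCF consensus, which was searched on both strands. CTCF is a zinc-finger protein that binds insulators and the anchors of chromatin loops, and a match is a description of the letters, not evidence of binding. The consensus occurs within the central 200 bp of 17.2% of all distal peaks of replicate 1 that overlap a peak of replicate 2. It is present in 2.43% of all RefSeq promoter windows of 300 bases.

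Nrxn3, a presynaptic receptor gene of 1612 kb (chr12:88722876-90334935, plus strand), had open chromatin at its beta start and at its outermost start, but none at the start annotated for its longest coding transcript. At the beta start, with 567 codons, the signal was 2.36 in replicate 1 and 2.98 in replicate 2 (2.67 ± 0.434), and the peaks lay over the start itself. These values exceeded 30.3% and 51.4% of the promoter signals of their libraries. At the alpha start (chr12, 88794504, 1571 codons), neither library had a peak in either list, nor a single listed base within 1 kb. A peak of 2.63 in replicate 1 and 2.67 in replicate 2 (2.65 ± 0.026) lay over a start 71628 bp farther upstream. The 4 transcripts that begin there are not classed as protein-coding, although the longest carries a frame of 1391 codons, so this start did not enter the count of promoter peaks. Of the 2 intermediate starts, each with 1100 codons, the one 158895 bp after the alpha start had 0.845 and 1.33, and the one 398602 bp after it had no peak and no listed base.

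The beta start and an intronic region of Nrxn3 are shown, the first as the coding start with the highest signal in the gene, the second as its strongest peak in replicate 1.
Nrxn3 beta start (chr12:89812183-89812482): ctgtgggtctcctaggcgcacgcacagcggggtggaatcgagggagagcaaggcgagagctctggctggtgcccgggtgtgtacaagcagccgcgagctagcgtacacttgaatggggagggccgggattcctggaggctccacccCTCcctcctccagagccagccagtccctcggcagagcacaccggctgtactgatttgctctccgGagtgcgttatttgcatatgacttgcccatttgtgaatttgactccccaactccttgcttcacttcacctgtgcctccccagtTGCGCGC
Nrxn3 intronic B (chr12:89106501-89106680): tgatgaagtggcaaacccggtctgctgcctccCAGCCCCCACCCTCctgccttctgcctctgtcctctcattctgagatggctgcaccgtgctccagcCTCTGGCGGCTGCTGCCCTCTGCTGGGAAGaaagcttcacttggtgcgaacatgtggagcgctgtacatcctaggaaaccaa

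At the beta start only 11 of the 300 upstream bases were protected in both libraries, while 47 lay in footprints of replicate 1 and 59 in footprints of replicate 2, so the footprints of the libraries rarely fell on the same bases there. The intronic region had 44 of 180 bases in footprints of both. Its longest protected run contains GCCCTCTGCTGG, the CTCF consensus read on the opposite strand. Repeats made up 35.0% of this region in the soft-masked reference.

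Nlgn1, a receptor of excitatory synapses (chr3:25426215-26332460, minus strand, 906.2 kb), had moderate signals at 2 of its 3 coding starts. The first start, with 843 codons, had 1.81 in replicate 1 and 1.59 in replicate 2 (1.7 ± 0.155), in a peak 440 and 420 bp from the start. Weaker shared peaks flanked it, with means of 1.22 upstream and 0.952 downstream. The noncoding gene A830092H15Rik also starts within 1 kb of the peak with a mean of 1.7 and of the downstream one. The annotated start nearest to the centre of the former lay 30 bp away. It was not a coding start of Nlgn1, the nearest of which lay 420 bp from the region. A830092H15Rik is the only other gene with a start within 1 kb of it. Which gene these peaks belong to was not tested. The second start, 179153 bp into the gene and with 814 codons, had 2.64 and 2.11 (2.37 ± 0.375), the highest promoter signal of the gene in both libraries. That peak lay 614 and 594 bp from the start, and the region over the start itself had 1.01 and 1.09. Within 1 kb, the libraries' ranges at the first and second starts did not overlap, with the second higher in each library. With a 500 bp window the strongest promoter signal of the gene had a mean of 1.7, that of the first start. The order of these starts thus depended on the window, with distances taken from the GENCODE starts only. The stronger peak of the second start covers a RefSeq start of Nlgn1, which these distances left out. At the third start, 198726 bp into the gene, no peak and no listed base were found within 1 kb. The bases up to the RefSeq start of the second group are shown, as the strongest promoter region of Nlgn1, with the gene's strongest distal region.
Nlgn1 second start (chr3:26153987-26154120): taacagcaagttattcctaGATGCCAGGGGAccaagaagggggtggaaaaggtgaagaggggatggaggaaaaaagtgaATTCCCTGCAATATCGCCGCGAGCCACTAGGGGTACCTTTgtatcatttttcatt
Nlgn1 intronic (chr3:25903221-25903440): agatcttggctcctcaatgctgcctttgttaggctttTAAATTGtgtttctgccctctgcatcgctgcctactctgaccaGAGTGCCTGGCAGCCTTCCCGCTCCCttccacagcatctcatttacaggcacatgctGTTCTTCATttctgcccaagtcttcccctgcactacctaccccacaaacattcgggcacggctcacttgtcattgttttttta

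In the promoter region 52 of 134 bases were protected in both libraries, most of them in a single run. In the intronic region, where the signal was 3.21 in replicate 1 and 2.54 in replicate 2, 42 of 220 bases were. None of the motifs searched was present in either sequence. That says only that these letters do not occur in these windows.

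Nlgn2, a receptor of inhibitory synapses, is the shortest of the genes (chr11:69823122-69837784, minus strand, 14.66 kb), and its strongest promoter peak is shared with a neighbour. The peak had 5.08 in replicate 1 and 7.37 in replicate 2 (6.23 ± 1.62), above 66.7% and 92.7% of the promoter signals of the libraries. It lay 417 and 257 bp upstream of the Nlgn2 start. In both libraries it covered an annotated start of Tmem256, a gene transcribed in the opposite direction. The share of each gene in this peak cannot be told apart. Over the Nlgn2 start itself, at chr11:69837661-69837940, replicate 1 had a peak of 1.77 and replicate 2 had none in either list. The best q-values in this region were nonetheless alike, 1.44e-14 in replicate 1 and 7.91e-15 in replicate 2. Footprints of both libraries covered 16 of its bases, so the missing peak does not show a closed start in replicate 2. Just inside the gene, at chr11:69837240-69837620, the values were 1.13 and 0.934. With all peaks within 1 kb of another protein-coding gene's start left out, Nlgn2 still had a peak near a start in each library, but not at the same place, with 0.792 in replicate 1 and 0.781 in replicate 2. The start 2935 bp downstream had 0.792 in replicate 1 and a peak only in the longer list of replicate 2, of 0.614.

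Part of the shared promoter region is shown, since it holds the highest signal in any promoter window of the 5 genes. It is written on the strand of Nlgn2, with 82 of its 300 bases protected in both libraries.
Nlgn2 and Tmem256 (chr11:69838214-69838513): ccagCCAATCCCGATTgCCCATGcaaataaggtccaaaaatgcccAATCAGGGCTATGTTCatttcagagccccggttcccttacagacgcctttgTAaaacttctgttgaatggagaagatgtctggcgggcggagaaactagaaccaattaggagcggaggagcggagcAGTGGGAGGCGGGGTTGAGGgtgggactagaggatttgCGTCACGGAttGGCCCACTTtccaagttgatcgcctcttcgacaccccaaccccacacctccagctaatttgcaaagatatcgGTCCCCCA

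An SP/KLF match (GGGCGG, the GC box of SP and KLF zinc-finger factors) is present in this sequence outside the footprints of both libraries. The same letters occur in 35.7% of all RefSeq promoter windows of 300 bases.

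Nlgn3 (chrX:101299168-101325963, plus strand, 26.8 kb) had the lowest promoter signal of the 5 when the peak shared with Tmem256 is counted for Nlgn2. Its single coding start, with 845 codons, lay in a peak of 1.06 in replicate 1, above 9.92% of the promoter signals of that library. Replicate 2 had a peak of 0.727 in its longer list only. The best q-values within 1 kb were 2.31e-07 and 0.00219. On the X chromosome, a single copy in males, a promoter peak was present in both libraries at 44.2% of protein-coding genes (419 of 948). A region inside the gene had higher signal than the promoter in both libraries, with 2.02 in replicate 1 and 2.98 in replicate 2 (2.5 ± 0.682). It lies 131 bp from the start of a transcript with no coding frame, 15223 bp into the gene, and is shown as the most protected of the shared regions of Nlgn3.
Nlgn3 intronic (chrX:101314001-101314260): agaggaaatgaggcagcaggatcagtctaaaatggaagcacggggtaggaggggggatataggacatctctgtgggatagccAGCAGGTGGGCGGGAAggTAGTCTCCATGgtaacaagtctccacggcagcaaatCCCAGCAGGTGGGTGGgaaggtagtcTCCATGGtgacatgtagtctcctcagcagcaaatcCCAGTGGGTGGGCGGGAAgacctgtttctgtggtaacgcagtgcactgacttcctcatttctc

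Footprints of both libraries covered 68 of its 260 bases. The region holds 2 SP/KLF matches, and each is centred in a footprint of both libraries.

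Setting the 5 genes side by side by the promoter signal, Nlgn2 (5.08 and 7.37) and Nrxn2 (5.43 and 4.46) overlapped in their library values, as did Nrxn3 (2.36 and 2.98) and Nlgn1 (2.64 and 2.11). Each value of the first pair exceeded each value of the second pair, and Nlgn3 was below all of them in both libraries. Thus the order within a pair is within the spread between the libraries in the 1 kb window. With a 500 bp window the mean was 1.7 for Nlgn1 and 2.67 for Nrxn3. The place of Nlgn2 rests on the peak shared with Tmem256. Without peaks at the starts of other genes, its 0.792 in replicate 1 and 0.781 in replicate 2 lie below Nrxn2, Nrxn3 and Nlgn1 in both libraries, and below the 1.06 of Nlgn3 in replicate 1. This also leaves out the peak of 1.77 in replicate 1 over the Nlgn2 start, which lies within 1 kb of the Tmem256 start.

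The genes also differed in how densely accessible regions lay away from the starts. The shorter lists held 154 separate regions in the 5 windows, 68 of them in both libraries, 15 in replicate 1 only and 71 in replicate 2 only. Distal regions, with their centre over 1 kb from every TSS of the basic annotation, numbered 132, of which 123 were intronic, 0 lay in a coding exon and 54 were found in both libraries. The distal regions include the peak over the outermost Nrxn3 start and the Nlgn3 region near a noncoding transcript start, since the basic annotation does not list those starts. Of the 86 regions in a single shorter list, 46 were present in the longer list of the other library. Shared regions had a median mean signal of 1.64, against 0.798 for regions of replicate 1 only and 0.661 for regions of replicate 2 only. Replicate 2 had the longer peak list, and its part in the number of regions seen there alone was not tested. Across the 68 shared regions the signals of the libraries lay within 2-fold of each other in 59, with a median log2 ratio of replicate 1 over replicate 2 of -0.25 and an SD of 0.58. At least 1 base lay inside footprints of both libraries in 57 of the 68.

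**Figure D2:**
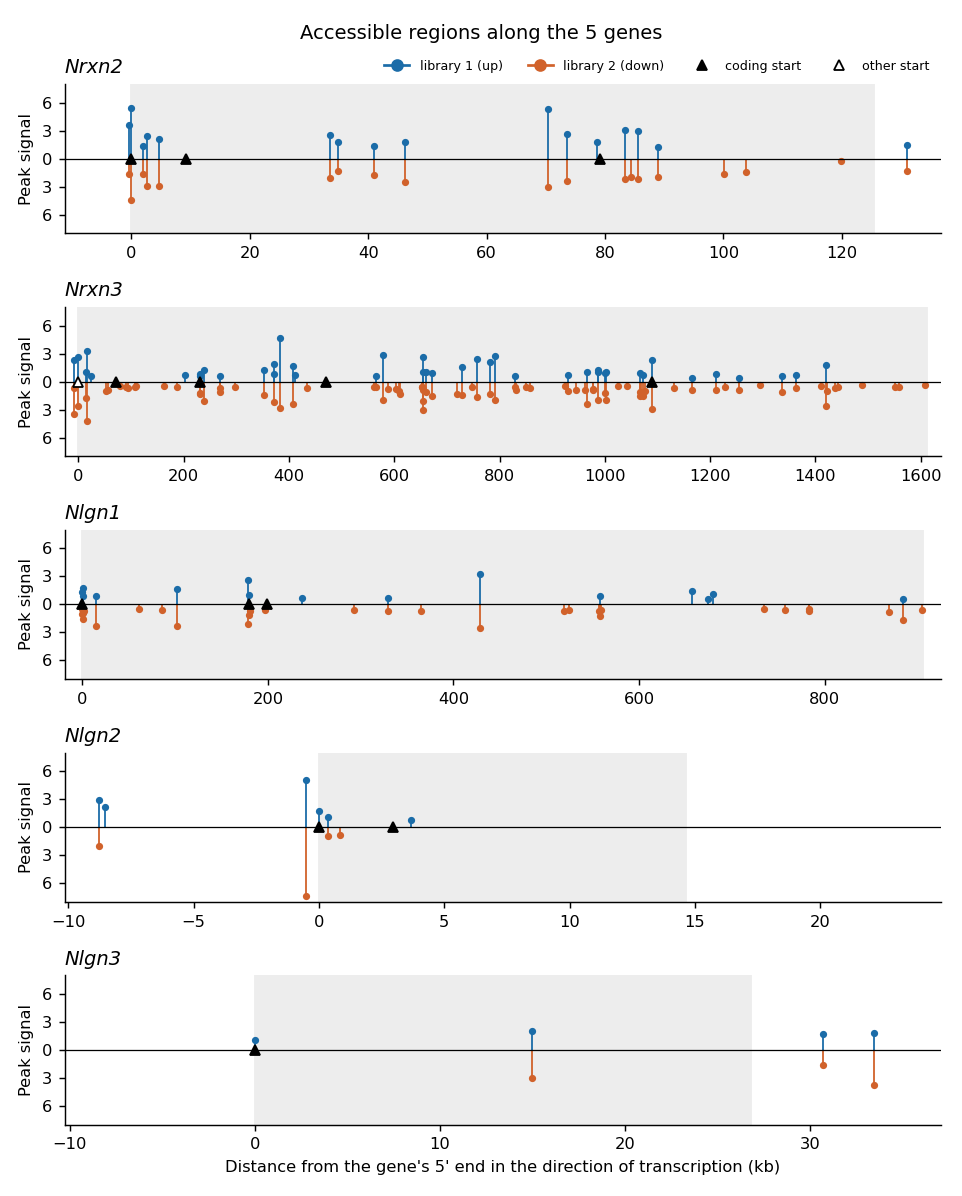
Every region of the shorter lists along the 5 genes, by distance from the 5′ end of the gene in the direction of transcription (x axis, kb). Bar height is the deposited peak signal, upward for replicate 1 and downward for replicate 2; grey marks the gene body, filled triangles coding starts and the open triangle the outermost Nrxn3 start, and regions crowd along Nrxn2 and along Nrxn3 before its last start.

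Nrxn2 had the highest density of distal peaks, with 10.3 and 12.4 per 100 kb in the libraries (11.3 ± 1.46, SD, n = 2). These densities lay above those of 99.1% and 98.4% of the 1935 protein-coding genes within 1.5-fold of its length, whose medians were 2.2 and 4.03. In Nlgn3 both libraries had 6.41 per 100 kb, from 3 peaks each, above 85.8% and 75.3% of genes of like length. Of these peaks 2 lie downstream of the gene, and the mean density was 3.73 in the gene body only and 3.55 with 50 kb on each side. The density in Nrxn3 was 2.57 and 5.02 (3.8 ± 1.73), above 85.1% and 87.2% of only 47 genes of like length. Nlgn1 had 1.19 and 2.48 (1.84 ± 0.916), close to the medians of 1.27 and 2.98 over 132 genes of like length. In the Nlgn2 window neither library had a distal peak, although medians of 2.62 and 3.0 were found for genes of like length. All peaks there lay near a start of Nlgn2, Tmem256 or Plscr3. With 10 kb on each side, the ranges over the libraries did not overlap between any pair of these genes. The order of Nlgn3 and Nrxn3 depended on that window, since Nrxn3 had a mean of 3.75 in the gene body only and 3.68 with 50 kb on each side, and Nlgn2 had 3.49 with 50 kb on each side. The medians over all protein-coding genes were 1.79 and 3.24.

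The order of the genes by footprints depended on the window. With 10 kb on each side Nlgn2 had the most, with 80.8 and 77.9 per 100 kb (79.3 ± 2.04), then Nrxn2 with 67.4 and 68.1 (67.7 ± 0.486) and Nlgn3 with 40.6 and 47.0 (43.8 ± 4.53). In the gene body only, the means were 23.9 for Nlgn2, 63.0 for Nrxn2 and 42.9 for Nlgn3, and with 50 kb on each side they were 48.8, 50.6 and 26.0. Nrxn3 had 9.13 and 17.0 and Nlgn1 had 5.83 and 12.2, and the ranges of these 2 genes overlapped. The medians were 18.6 and 24.3 over all protein-coding genes. Among genes of like length they were 3.89 and 8.83 for Nrxn3 and 5.79 and 11.6 for Nlgn1. Of the footprints in the Nlgn2 window, 21 of 28 in replicate 1 and 14 of 27 in replicate 2 lay inside peaks. The peaks in this window were all promoter peaks, including those of its neighbours.

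**Figure D3:**
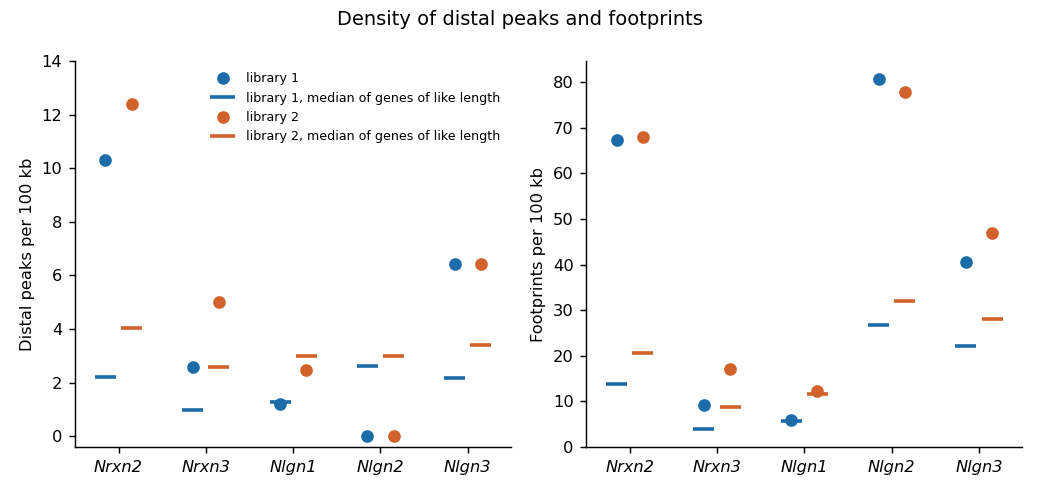
Distal peaks (left) and footprints (right) per 100 kb of the gene body with 10 kb on each side, in replicate 1 (blue) and replicate 2 (orange). Points are the 5 genes and short bars the median of protein-coding genes within 1.5-fold of each gene's length; Nrxn2 lies far above its bars in both panels, and Nlgn2 is at 0 on the left and highest on the right, where its mean is 23.9 in the gene body only, against 63.0 for Nrxn2.

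Of the peaks of Nrxn2, 18 of 19 in replicate 1 and 17 of 21 in replicate 2 overlapped a peak of the other library. In Nrxn3 the counts were 41 of 46 and 38 of 85, and in Nlgn1 14 of 19 and 13 of 32. Nlgn2 had 3 of 6 and 3 of 4, and Nlgn3 3 of 4 and 3 of 3. Nrxn3 and Nlgn1 therefore held most of the regions seen in replicate 2 only, with 47 and 19 of 71. Their median peak signals were low, 0.957 and 0.901 in Nrxn3 and 0.943 and 0.744 in Nlgn1, against 2.1 and 1.96 in Nrxn2.

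Within Nrxn3, distal peaks were denser before the beta start than after it. The 1090 kb before it held 35 peaks in replicate 1 and 63 in replicate 2, or 3.21 and 5.78 per 100 kb. The 522.5 kb after it, which both forms share, had 1.15 and 3.25 per 100 kb. In Nrxn2 the libraries differed in direction, with 12.6 and 11.4 before the beta start and 8.63 and 17.3 after it. In Nlgn1, 1.01 and 3.02 were found before the last start and 1.13 and 2.26 after it. Of 428 protein-coding genes with at least 50 kb on each side of their last start, 47.2% in replicate 1 and 45.1% in replicate 2 were denser before it.

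The strongest shared distal regions of each gene lay in introns or just outside the gene. In Nrxn2, after the region 8548 bp before the beta start, the next were chr19:6421321-6421540, 2556 bp into the gene (2.43 and 2.93), and chr19:6502031-6502260, 4196 bp past the beta start (3.03 and 2.21). In Nrxn3, chr12:88738721-88738940 in an intron had 3.27 and 4.18 (3.72 ± 0.644). The intronic region with the CTCF letters shown above, 86426 bp from the nearest coding start, had 4.63 and 2.82 (3.72 ± 1.27). These means were equal, and the libraries ranked the regions in opposite order. A region upstream of the gene, chr12:88713501-88713780, had 2.32 and 3.51 (2.92 ± 0.84). In Nlgn1, the intronic region shown above, 230294 bp from the nearest coding start, was followed by chr3:26230081-26230320 (1.69 and 2.3) and chr3:26317521-26317740 (0.943 and 2.27). Nlgn3 had 2 regions downstream of the gene. At chrX:101332461-101332740 the values were 1.86 in replicate 1 and 3.72 in replicate 2 (2.79 ± 1.32), and at chrX:101329741-101329960 they were 1.75 and 1.58.

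Of 11 CTCF matches centred in a footprint of either library, 8 were centred in footprints of both. All 8 were in the neurexin genes, 3 in Nrxn2 and 5 in Nrxn3, and 0 in the 3 neuroligin genes, where the single match, in Nlgn1, was in a footprint of replicate 1 only. The matches in Nrxn2 lay in the peak upstream of the alpha start and in regions starting at 6489061 and 6492181 before the beta start, all on the plus strand. In Nrxn3 the 5 matches lay between the alpha and beta starts. Read along the gene, the first 3 were on the minus strand (89106613, 89134573 and 89395712) and the last 2 on the plus strand (89505310 and 89513970). The neurexin windows also held more footprints than the neuroligin windows. In replicates 1 and 2 they numbered 98 and 99 in Nrxn2 and 149 and 278 in Nrxn3. The neuroligin windows had 54 and 113 in Nlgn1, 28 and 27 in Nlgn2 and 19 and 22 in Nlgn3. The consensus was held by 3 and 3 of them in Nrxn2, 6 and 6 in Nrxn3 and, in replicate 1, 1 in Nlgn1. Over the 5 genes, the consensus was held by 10 of 348 footprints (2.87%) in replicate 1 and by 9 of 539 (1.67%) in replicate 2, against 3.68% and 2.25% of all footprints. Among the shared distal regions of the 5 genes, joined over the libraries, it was found within the central 200 bp in 5 of 54 (9.26%). The share was 17.2% of 42019 distal peaks of replicate 1 in the series that overlapped a peak of replicate 2. These units differ, and the matches at 6492251 and 89395712 fell outside the central 200 bp of their joined regions. By the share of footprints, the consensus was thus no more frequent in these genes than elsewhere. Its difference between neurexins and neuroligins was not tested.

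SP/KLF letters were centred in footprints of both libraries at 13 of 26 sites, with overlapping matches counted as 1 site. By gene window, 6 of them were in Nrxn2, 3 in Nlgn2, 2 in Nlgn3 and 2 in Nrxn3. In the Nlgn2 window, the sites at 69846328 and 69846585 lay in peaks at the Plscr3 promoter. The site at 69838141 lay in the peak shared with Tmem256. E-box letters (CAGCTG and CAGATG, bound by neuronal helix-loop-helix factors) were centred in footprints of both libraries at 11 of 30 sites, 8 in Nrxn3 and 3 in Nrxn2. AP-1 letters (TGANTCA, bound by FOS and JUN) were at 2 of 13 sites, 1 in Nrxn3 and 1 in Nlgn3, in the first of the downstream regions named above. RFX letters were at 2 of 2 sites, 1 in Nlgn1 and 1 in Nrxn3, and EGR letters (GCGGGGGCG and GCGTGGGCG) at 1 of 2. Neither RFX site lay in a shared region. The site in Nlgn1 was in a region of replicate 2 only (0.647), and that in Nrxn3 was outside the regions of the shorter lists. In the shares of footprints, SP/KLF stood at 5.46% and 3.15% in the 5 genes, against 5.51% and 4.05% of all footprints. E-box stood at 4.02% and 5.01%, against 4.37% and 4.58%, and AP-1 at 1.44% and 1.86%, against 0.77% and 1.55%. RFX stood at 0.575% and 0.371%, against 0.244% and 0.275%, from 2 footprints in each library. EGR stood at 0.575% and 0.186%, against 0.545% and 0.372%. Footprints of the 5 genes held no NRF1, CRE (TGACGTCA) or ETS (CCGGAAG) letters in either library, where all footprints had at most 0.735%.

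The other genes of trans-synaptic adhesion were nearly all accessible at their promoters. Promoter peaks were present in both libraries at 46 of 49 such genes (93.9%), and all 49 had one in the longer lists, against backgrounds of 58.7% and 63.3%. The list was written with earlier results of these data known. The median of their mean promoter signal was 2.29, below the 3.54 of all genes with a promoter peak in both libraries.

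Each of the 14 ligands of neurexins was accessible at its promoter in both libraries. By the mean of the libraries, which ranks the genes of each role here, the highest signals among them were 7.84 in replicate 1 and 4.89 in replicate 2 at Dag1, which encodes dystroglycan, and 5.52 and 5.2 at Clstn3, a calsyntenin. Both Mdga genes, whose proteins bind neuroligins and keep neurexins off, had one, with 1.37 and 1.13 at Mdga1 and 2.65 and 2.05 at Mdga2. Inside the presynaptic terminal, 6 of 6 partners of neurexins had one, led by the Mint adaptor Apba1 (5.81 and 3.88) and by Lin7c (4.59 and 4.56), which binds the scaffold protein CASK. Of the intracellular partners of neuroligins 5 of 5 had one, among them Gphn (3.53 and 3.84), which encodes gephyrin, the scaffold of inhibitory synapses. The 3 splicing regulators of neurexin transcripts had one as well, with 5.18 and 3.63 at Khdrbs1 and 3.82 and 3.76 at Khdrbs2. Among 19 other synaptic adhesion genes 16 did, led by the receptor phosphatase gene Ptprs (7.26 and 5.95) and by Cadm1 (5.56 and 5.03). The exceptions were Il1rapl1 (0.921 in replicate 2 only), Lrrc4 (1.1 in replicate 1 only) and Lrrc4b (0.781 in replicate 2 only).

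**Figure D4:**
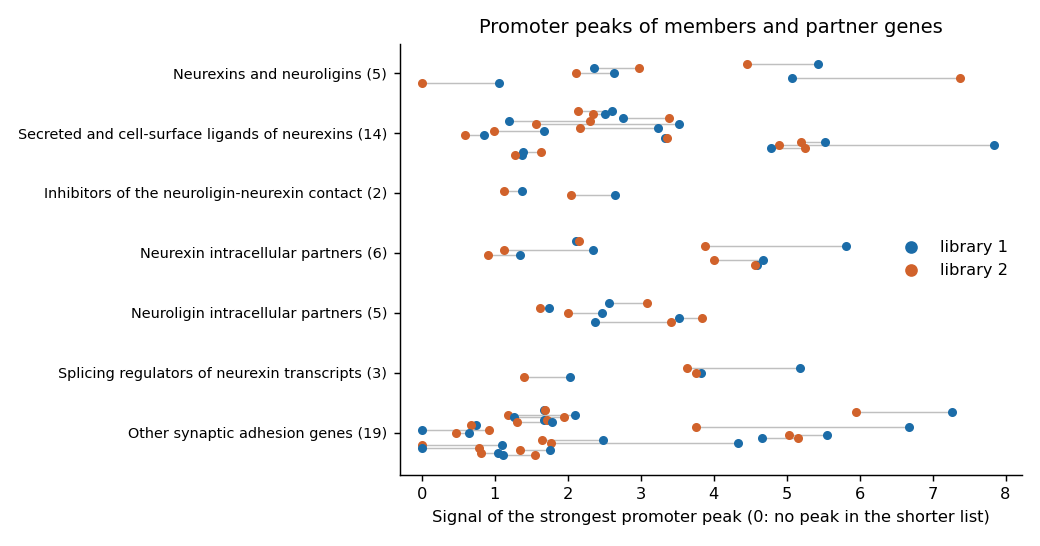
Signal of the strongest promoter peak (x axis, deposited peak signal) in replicate 1 (blue) and replicate 2 (orange) for the 5 genes and for 49 partner genes by role, with a grey line joining the libraries of a gene. A value of 0 marks a library with no promoter peak in its shorter list, as for Nlgn3 in replicate 2 and 3 of the other adhesion genes.

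The genes most like each member were found by the distance over 4 values, the log2 promoter signal and the log2 distal density, each with 1 added, in both libraries. Those nearest to Nrxn2 were Fam222a and Spata2, and those nearest to Nrxn3 were Dpp6 and Cadps, both also long genes (910.3 and 450.5 kb). Nearest to Nlgn1 were Pak2 and Svop, and nearest to Nlgn3 were Nbl1 and Ccdc69. For Nlgn2 the nearest was Tmem256, at a distance of 0 because the shared peak sets its value, followed by Csnk2b. The likeness rests on 2 libraries and 4 values and is given as a description.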

How the data were processed

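DNase-seq of mouse left cerebral cortex was analysed as deposited, in 2 libraries of 1 group. Per library, the authors deposited a shorter and a longer peak list on mm10 with a signal for each peak, and called them in that library alone per the deposited notes. They also deposited footprints, whose deposited score is constant and was not analysed, and bases with a false discovery rate (q-value) of at most 0.05. No aligner, caller or threshold is given in the sources used here. Depth was judged from the calls alone (34.489 and 59.986 Mb of listed bases), without read totals, and no counting interval is given. The build mm10 derives from C57BL/6J, so the CAST alleles of the hybrid differ from it, and alleles were not analysed here.

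The shorter list of each library was the main one and the longer list an alternative. Overlap meant at least 1 bp. Overlaps used numpy 2.4.6 and pandas 2.3.3 under python 3.11.15 in place of the planned bedtools, tested on simulated data, and pysam 0.24.0 read the sequences. Start sites came from the GENCODE M21 basic annotation, and RefSeq promoter entries matched 3 of the 5 members. Genes of like length were within 1.5-fold. The regions named were, by rule, the 3 strongest shared distal regions of each gene; partner genes named were the 2 with the highest signal in each role and those without a promoter peak in both libraries, except 1 that is not reported here. The members and lists were chosen with earlier results of these data known. With 1 group no comparison between conditions and no test was possible, so values are given with the SD over 2 libraries.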

Additional observations from a re-analysis of the deposited data

How the results depend on the processing

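No paired analysis was possible because the series holds a single group, and replicate numbers therefore pair no samples. Counts of genes, start sites and partner genes with a promoter peak stayed within 1.5 times under every alternative run: 4 to 5 genes, 6 to 9 groups of start sites and 45 to 49 partner genes. The 9 groups were of 13 with the longer lists and in replicate 1 alone, but of 23 with all annotated transcripts, so these counts have unlike totals. In medians over the 5 genes, the longer peak lists gave a promoter signal of 2.67 in place of 3.81, since Nlgn3 then entered, and 6.31 distal peaks per 100 kb in place of 3.8. Other windows for footprints gave 23.9 per 100 kb in the gene body only and 26.0 with 50 kb on each side, and footprints wholly inside a main peak gave 24.6, in place of 43.8. The share of peaks found in both libraries was 66.9%, and it was 43.6% with a reciprocal overlap of 50% and 85.5% with the longer list of the other library. Leaving out each library in turn gave 2.64 to 3.72 for the promoter signal, 2.57 to 5.02 for distal peaks and 40.6 to 47.0 for footprints. For Nrxn2 the density of distal peaks was 8.43 with 50 kb on each side and 18.6 with the longer lists, for Nlgn3 it was 3.73 in the gene body only, and for Nlgn2, at 0 distal peaks otherwise, it was 3.49 with 50 kb on each side and 1.44 with the longer lists. Leaving out peaks at starts of other genes and, for distal peaks, measuring distance from peak edges, using all transcripts and merging overlapping peaks were chosen after seeing the data. Of 101 alternative values for single genes, 25 moved by more than the SD of the 2 libraries, 8 of them upward. The 101 include values with a library left out, which cannot move by more than this SD, since the main value is the mean of the libraries. Those values therefore say nothing about stability. With 2 libraries of unequal list length, regions absent from a list are not shown to be closed.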
